A study of Mus musculus with 7 samples.

Results

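Small nucleolar RNA host genes were followed across ribosome-bound RNA of cholinergic cells from the mouse ventral striatum. The members were the rows of the expression table whose symbol starts with Snhg and a digit, plus Gas5, and 12 of the 22016 rows met that rule. The family was taken up because Snhg1 was higher in KO in the same libraries, so every KO and WT value of its members is a description and carries no test. All 12 members passed the filter on low values (a mean of at least 1 FPKM over all libraries), as did 10089 rows in all. FPKM, fragments scaled to transcript length and library size, allows levels to be set side by side between genes.

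The 4 KO libraries came from mice with the ChAT bacTRAP transgene, floxed p11 (p11 fl/fl) and ChAT Cre, and the 3 WT libraries from mice with the same transgene and floxed p11 but no Cre. p11 is the protein of S100a10. Both groups were on a C57/Bl6N background, were 8 to 12 weeks old, included males and females, and received no treatment. Each library held RNA of 6 ventral striata from 3 mice, taken by translating ribosome affinity purification (TRAP), in which a tagged ribosomal protein made in ChAT-positive cells is pulled down with the RNA on it. Each replicate thus stood for a separate pool of animals. Cre came with KO alone, so an effect of Cre and one of the deletion cannot be told apart, and S100a10 deletion was limited to cells that had expressed ChAT.

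S100a10 fell to 136 ± 41.5 FPKM in KO (SD, n = 4), against 349.9 ± 32.6 FPKM in WT (SD, n = 3), a log2 difference of -1.40 (SE 0.22, limma adjusted p = 0.0098). That call was lost when any 1 of the 3 WT libraries was left out. The log2 difference was then -1.44 without WT1, -1.44 without WT2 and -1.33 without WT3. A fit with the replicate number as a block also lost the call, at a log2 difference of -1.22. Summed FPKM ran from 379417 to 511328 in KO and from 418931 to 440720 in WT. Pearson correlations of log2 levels across rows ran from 0.929 for KO1 with WT1 to 0.991 for WT2 with WT3. Of the 8 cholinergic marker rows none was listed at 0 everywhere, and their summed level was 939 to 1140.4 FPKM in KO and 1227 to 1359 FPKM in WT. Single markers went both ways, with 3 log2 differences positive and 5 negative. Slc18a3 averaged 322 FPKM in KO and 543 FPKM in WT, and Lhx8 averaged 208 FPKM in KO and 174 FPKM in WT. KO1 had the highest summed level of the KO libraries for medium spiny neuron markers (6 rows, 73.7 to 264 FPKM in KO and 62.8 to 86.5 FPKM in WT), other interneuron markers (6 rows, 17.9 to 94.9 FPKM in KO and 15.4 to 19.5 FPKM in WT) and oligodendrocyte markers (6 rows, 33.7 to 77.3 FPKM in KO and 31.9 to 37.1 FPKM in WT). Among the other interneuron markers, Sst, Npy, Pvalb and Vip were highest in KO1 of the KO libraries. Nos1 (0.4 FPKM) and Th (3.9 FPKM) were lowest there. Microglia markers summed to at most 1.2 FPKM in KO and 1.9 FPKM in WT. In pooled tissue, fewer cells of a type and less RNA per cell cannot be told apart.

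Small nucleolar RNAs are short RNAs that guide chemical changes in ribosomal and spliceosomal RNA. Most in mammals are cut out of the introns of host genes: box C/D RNAs guide methylation of the ribose, and box H/ACA RNAs guide the change of uridine to pseudouridine. The spliced host RNA that is left over often codes for no long protein, yet it can reach the cytoplasm and be bound by ribosomes, and for several hosts, Gas5 among them, translation is known to lead to nonsense-mediated decay. Many hosts start with a terminal oligopyrimidine (TOP) tract, a C followed by a run of C or T, as the genes of ribosomal proteins do.

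Snhg1 and Gas5, the 2 members with the most hosted RNAs, had differences of opposite sign, so their hosted RNAs are shown first. Snhg1 lies on the plus strand of chromosome 19 (mm10, chr19:8723475-8726443) and had 10 exons in its transcript with the most exons. Its 8 small nucleolar RNAs each sat in an intron, 1 in each of introns 1 to 8. They are written below from the GENCODE M21 transcripts, in capitals the box C core TGATGA where it was found in the first 25 bases and the box D motif CTGA found in the last 15 bases, both searched on the RNA's own strand.
Gm25855, intron 1, chr19:8723993-8724064: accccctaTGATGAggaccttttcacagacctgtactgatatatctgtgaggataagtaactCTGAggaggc
Gm25894, intron 2, chr19:8724251-8724325: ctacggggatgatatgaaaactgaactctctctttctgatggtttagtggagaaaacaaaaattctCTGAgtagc
Gm24452, intron 3, chr19:8724531-8724602: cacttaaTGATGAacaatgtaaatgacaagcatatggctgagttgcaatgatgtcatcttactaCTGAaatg
Gm24453, intron 4, chr19:8724868-8724943: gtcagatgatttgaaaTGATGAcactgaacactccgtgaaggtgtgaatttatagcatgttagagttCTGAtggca
Gm22744, intron 5, chr19:8725092-8725156: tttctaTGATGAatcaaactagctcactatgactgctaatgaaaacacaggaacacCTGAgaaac
Gm22680, intron 6, chr19:8725341-8725409: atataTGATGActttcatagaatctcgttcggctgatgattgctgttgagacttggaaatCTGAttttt
Gm23246, intron 7, chr19:8725594-8725660: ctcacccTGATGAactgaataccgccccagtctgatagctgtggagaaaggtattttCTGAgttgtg
Snord22, intron 8, chr19:8725866-8725991: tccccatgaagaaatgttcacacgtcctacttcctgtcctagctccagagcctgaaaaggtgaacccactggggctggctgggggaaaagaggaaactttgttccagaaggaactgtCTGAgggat
Box C was found in 6 of the 8 and box D in 8 of the 8. Of all 1507 snoRNA transcripts of the annotation, which include the box H/ACA class, 21.8% held TGATGA and 31.4% held CTGA in the same windows.

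Gas5 lies on the plus strand of chromosome 1 (mm10, chr1:161034422-161038539), with 12 exons and 9 hosted small RNAs in introns. Box C was found in 7 of the 9 and box D in 9 of the 9. The 3 with a Snord symbol are written below with the same capitals, as the counterpart of the Snhg1 set.
Snord78, intron 6, chr1:161036984-161037049: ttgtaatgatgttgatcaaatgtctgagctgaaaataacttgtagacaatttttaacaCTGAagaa
Snord80, intron 9, chr1:161037601-161037681: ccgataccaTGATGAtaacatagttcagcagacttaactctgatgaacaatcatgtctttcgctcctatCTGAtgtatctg
Snord47, intron 10, chr1:161038082-161038158: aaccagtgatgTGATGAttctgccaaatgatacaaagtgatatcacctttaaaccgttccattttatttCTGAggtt
Across the 10 members with a GENCODE entry there were 31 hosted small RNAs, and 31 of them lay in an intron. Snhg12 held 4 (Snora16a, Snora44, Snora61 and Snord99), Snhg3 held Snora73a and Snora73b, and Snhg5 held Snord50a and Snord50b. Snhg11 also held 2, Snhg6 held Snord87, Snhg8 held Snora24, Snhg9 held Snora78, and Snhg10 held Scarna13, a guide RNA of Cajal bodies.

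**Figure D1:**
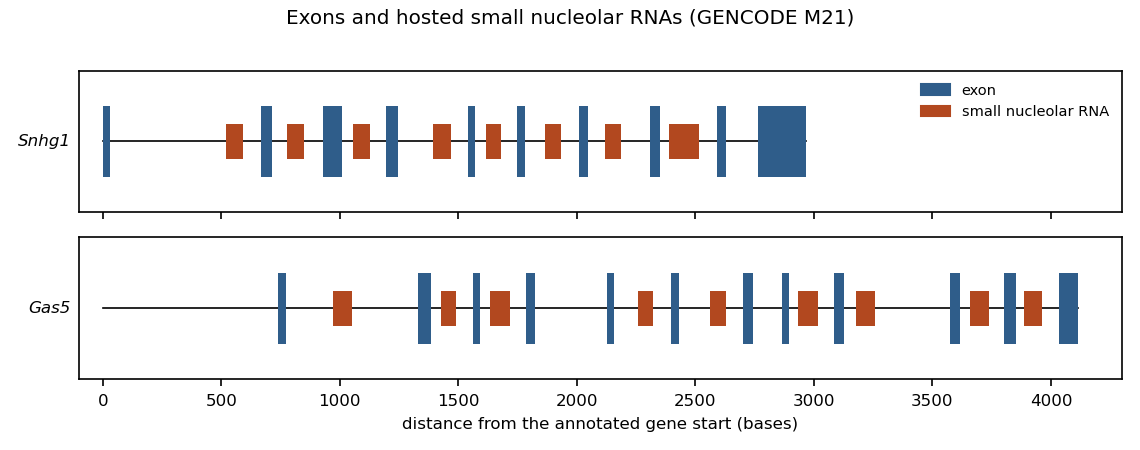
Exons (blue) and hosted small nucleolar RNAs (orange) of Snhg1 and Gas5 in GENCODE M21, against the distance in bases from the annotated gene start, for the transcript with the most exons. All 8 hosted RNAs of Snhg1 and all 9 of Gas5 lie between exons.

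The start sites of the members differed in one feature that the choice of members did not use. Windows of 30 bases, from 10 before to 20 after the RefSeq start (GRCm38.p6), were searched on the transcript strand for a C followed by at least 4 bases that are C or T. They are written below with each such run in capitals, and Gas5 is given at its second RefSeq start, since its first had no run.
Gas5 (second start), plus strand, chr1:161035156-161035185: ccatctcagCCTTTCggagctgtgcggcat
Snhg7, minus strand, chr2:26640225-26640254: gatgctcggCCTCTCggcagccatggcggc
Snhg11, plus strand, chr2:158375703-158375732: tgcggcactcactcacgcactcagcctgct
Snhg8, minus strand, chr3:123508317-123508346: gttcagaagtCTCTTTggctgcgatccgcc
Snhg12, plus strand, chr4:132308668-132308697: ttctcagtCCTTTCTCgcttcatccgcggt
Snhg3, minus strand, chr4:132353667-132353696: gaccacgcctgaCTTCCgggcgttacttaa
Snhg5, minus strand, chr9:88522878-88522907: gcggtgaaccgggctcgttCTTTTacgacg
Snhg10, minus strand, chr12:105032260-105032289: ggttCCTTTTgcggtgattgctacggtaac
Snhg9, minus strand, chr17:24719946-24719975: aCTTTCCCTCgccgaagccgcgccctacac
Snhg1, plus strand, chr19:8723477-8723506: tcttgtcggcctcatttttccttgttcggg
A run was found in 8 of the 10 members with a sequence in the table (80%), against 39.6% of all 27025 genes in the table and 68.3% of the 63 ribosomal protein genes. Snhg1 and Snhg11 were the 2 without one. A run counted anywhere in the window, so it need not lie at the start. The runs of Snhg9 and Snhg10 ended before the RefSeq start, and those of Snhg3 and Snhg5 began after it. In Snhg1 the C and T bases at the start were broken by an A, so no C was followed by 4 such bases. A match is a description of these letters, and no start site was measured in these libraries.

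Snhg1 starts back to back with Slc3a2, the heavy chain of amino acid transporters of the cell surface, which lies on the minus strand. The RefSeq promoter of Snhg1 (chr19:8723237-8723536, GRCm38.p6, plus strand) is written below. In capitals are the 117 bases between Slc3a2 and Snhg1 as RefSeq places both genes. GENCODE starts Snhg1 earlier, at 8723475, so the last of the capitals lie inside its GENCODE entry.
Snhg1: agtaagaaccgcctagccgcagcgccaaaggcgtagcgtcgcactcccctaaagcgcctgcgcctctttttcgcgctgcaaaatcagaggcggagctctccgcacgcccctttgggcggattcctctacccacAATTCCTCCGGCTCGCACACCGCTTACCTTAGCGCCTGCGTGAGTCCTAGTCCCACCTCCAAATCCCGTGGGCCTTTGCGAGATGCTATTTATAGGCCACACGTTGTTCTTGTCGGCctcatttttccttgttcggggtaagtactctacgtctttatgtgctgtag

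Snhg1, the member by which the family was chosen, measured 61.4, 57.1, 57.8 and 40.1 FPKM in the 4 KO libraries, against 7.4, 21.7 and 22.4 FPKM in the 3 WT libraries. The groups did not overlap, KO4 was the lowest of the KO libraries, and WT1 lay far below WT2 and WT3. The mean was 54.1 ± 9.52 FPKM in KO (SD, n = 4) and 17.2 ± 8.47 FPKM in WT (SD, n = 3), a log2 difference of 1.72 (SE 0.31) on the log2(FPKM + 1) scale used for all differences here. Among all tested rows its mean level stood at percentile 86.6 in KO and percentile 66.1 in WT. Without WT1 the log2 difference was 1.24, and over the 7 fits that each left out 1 library it ran from 1.24 to 1.98. Without KO1, the KO library with the highest summed levels of other cells' markers, it was 1.66. In the authors' deposited table of 113 genes, Snhg1 was the 1 member listed, with means of 54.1 FPKM in KO and 17.1 FPKM in WT and a fold of 2.85. The ratio of the mean FPKM values here was 3.15, so the authors' fold is another measure. How it was computed is not given in the sources used here.

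Snhg1 was also the 1 member of 12 past the threshold (limma, Benjamini-Hochberg adjusted p at most 0.05 over all rows). Over all tested rows 1.74% passed it, 0.971% higher and 0.773% lower in KO, and because the family was chosen on this contrast nothing is read from the count. Without KO2, and likewise with no filter on low values, none of the 12 passed.

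**Figure D2:**
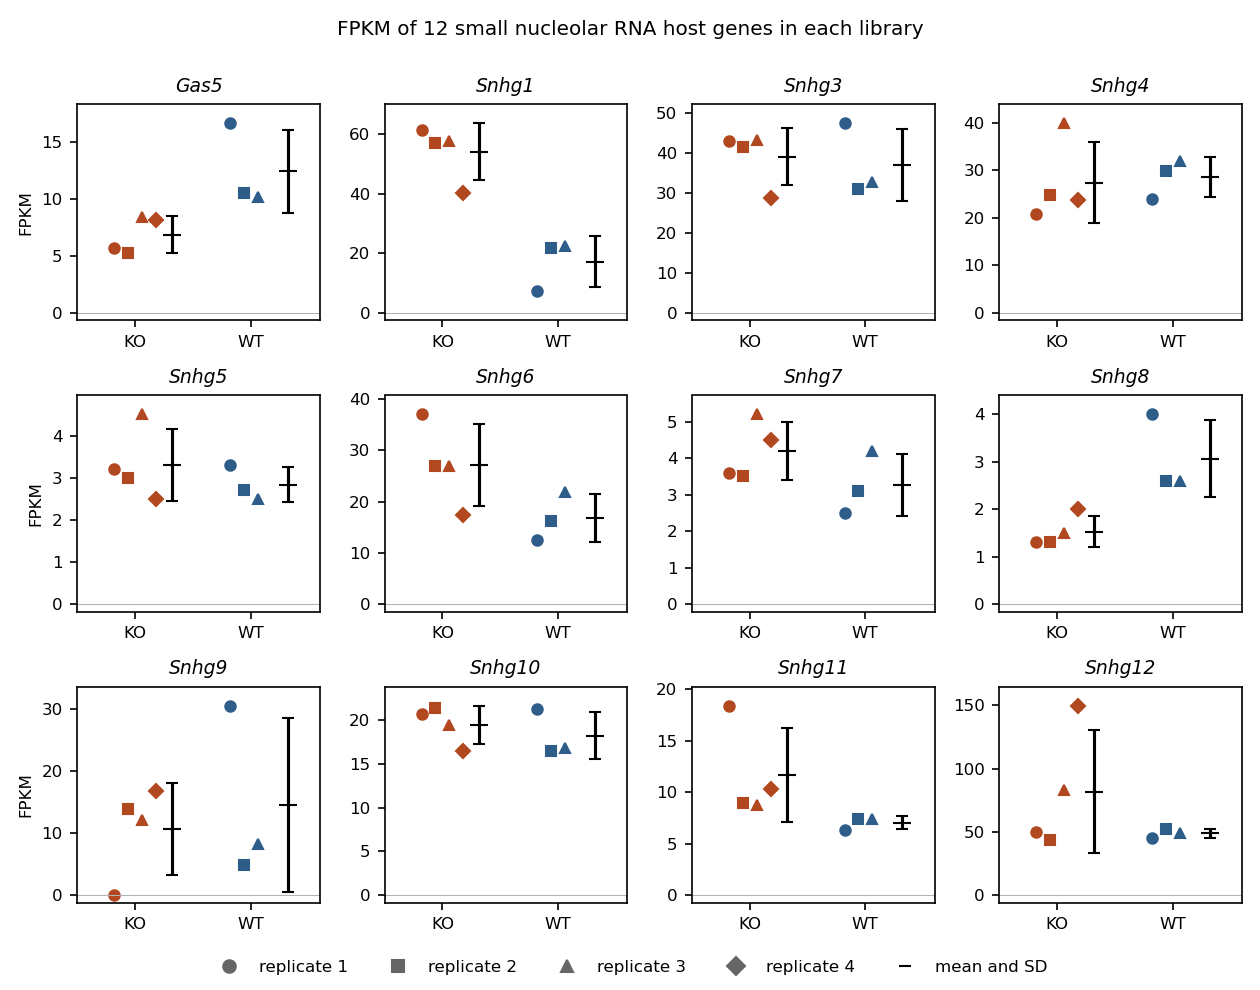
FPKM of each member in each library, KO (orange) left of WT (blue), with 1 marker shape per replicate number and a bar for the mean and SD of each group. Snhg1 sits between 40.1 and 61.4 in KO and between 7.4 and 22.4 in WT, and WT1 (blue circle) lies apart from WT2 and WT3 in most panels.

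Gas5, the growth arrest-specific transcript, had a difference of the opposite sign. It measured 5.7, 5.2, 8.4 and 8.1 FPKM in KO, against 16.6, 10.5 and 10.1 FPKM in WT. Every KO library lay below every WT library, and WT1 was the highest. The log2 difference was -0.76 (SE 0.22), and -0.55 without WT1. Gas5 overlaps Zbtb37 on the opposite strand in the annotation, and the sources used here do not say how strand was handled. The row of Zbtb37, a zinc finger gene, measured 1.55 ± 0.819 FPKM in KO (SD, n = 4) and 1.4 ± 0.917 FPKM in WT (SD, n = 3), with overlapping groups.

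A ratio of both genes within a library does not depend on how that library was scaled. Snhg1 over Gas5 was 10.8, 11, 6.88 and 4.95 in KO, against 0.446, 2.07 and 2.22 in WT. WT1 was the library in which Gas5 exceeded Snhg1, and all other libraries held more Snhg1 than Gas5.

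Snhg8, the host of Snora24, also lay lower in KO. It measured 1.3, 1.3, 1.5 and 2 FPKM in KO, against 4, 2.6 and 2.6 FPKM in WT. The groups did not overlap, but all values were low, and the log2 difference of -0.68 (SE 0.21) moved to -0.95 with a pseudocount of 0.1 and to -0.30 with a pseudocount of 5.

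Snhg11, a host expressed mainly in neurons, measured 18.4, 9, 8.8 and 10.3 FPKM in KO, against 6.3, 7.4 and 7.4 FPKM in WT. Every KO library lay above every WT library, with KO1 far above the other 3. The log2 difference was 0.59 (SE 0.23), and 0.37 without KO1, where the summed levels of medium spiny neuron and interneuron markers were also highest. The part of those markers in the Snhg11 level was not tested.

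With Snhg1, Snhg11, Gas5 and Snhg8, 4 of the 12 members had groups that did not overlap, 2 with KO above and 2 with KO below. Over all tested rows 17.4% had groups that did not overlap, 9.11% with KO above and 8.29% with KO below. The count includes Snhg1, by whose rise the family was chosen, so nothing is read from it.

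Snhg6, the host of Snord87, measured 37, 26.9, 26.9 and 17.4 FPKM in KO, against 12.5, 16.2 and 21.8 FPKM in WT. As for Snhg1, KO4 was the lowest KO library and WT1 the lowest WT library, but here KO4 fell inside the WT range. The log2 difference was 0.64 (SE 0.24). Snhg6 overlaps Mcmdc2 on the opposite strand in the annotation.

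Snhg12, with 4 hosted RNAs, had the highest mean level in both groups, although Snhg1 exceeded it in KO1 and KO2 and Snhg3 exceeded it in WT1. It measured 50, 43.4, 83.2 and 149.6 FPKM in KO, against 45.1, 52.4 and 49.4 FPKM in WT. The KO libraries spread widely while the WT libraries stayed close together, and KO1 and KO2 lay in or just below the WT range. The log2 difference of 0.55 (SE 0.33) was 0.21 without KO4.

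Snhg9, the host of Snora78, varied most. It was listed at 0 in KO1 and measured 13.9, 12.1 and 16.9 FPKM in the other KO libraries, against 30.6, 4.9 and 8.2 FPKM in WT. The lowest and the highest value thus came from KO1 and WT1, and the log2 difference of -0.64 (SE 0.86) was 0.34 without KO1. Snhg9 overlaps Rps2, a ribosomal protein gene on the opposite strand, whose row measured 310.1 ± 63.2 FPKM in KO (SD, n = 4) and 333 ± 11 FPKM in WT (SD, n = 3). Reads of the pair cannot be told apart if strand was not used.

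The groups of the other 5 members overlapped. Snhg3, the host of the U17 RNAs, averaged 39.1 ± 7.02 FPKM in KO (SD, n = 4) and 37 ± 9.02 FPKM in WT (SD, n = 3), with KO4 at 28.6 FPKM and the other KO libraries at 41.5 to 43.2 FPKM. Of its 31-base words 68.8% also occur in transcripts of other genes, so its level is uncertain. Snhg4 averaged 27.4 ± 8.52 FPKM in KO and 28.6 ± 4.2 FPKM in WT, with the same n. Snhg10, the steadiest of the 5, averaged 19.5 ± 2.16 FPKM in KO and 18.2 ± 2.69 FPKM in WT. Snhg7 averaged 4.2 ± 0.804 FPKM in KO and 3.27 ± 0.862 FPKM in WT. Snhg5, the host of the U50 RNAs, averaged 3.3 ± 0.852 FPKM in KO and 2.83 ± 0.416 FPKM in WT. Snhg5 and Snhg7 thus lay near the lower end of the family. Log2 differences were 0.08 for Snhg3, -0.09 for Snhg4, 0.10 for Snhg10, 0.29 for Snhg7 and 0.15 for Snhg5. The sign turned for Snhg3 without WT2 (-0.03) and for Snhg4 without KO1 (0.02).

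**Figure D3:**
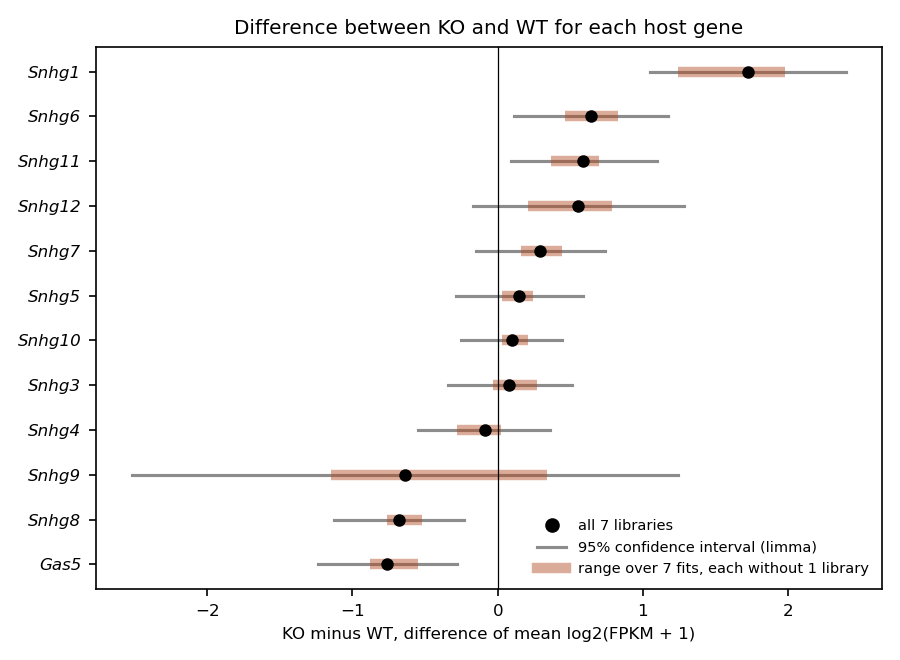
Difference of mean log2(FPKM + 1), KO minus WT, for each member (black point), with its 95% confidence interval (grey line) and the range over the 7 fits that each left out 1 library (orange bar). Snhg1 stands at 1.72 with a range of 1.24 to 1.98, and the ranges of Snhg3, Snhg4 and Snhg9 cross 0.

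Across the family, 8 of the 12 log2 differences were positive and 4 negative, against 5388 positive of all 10089 tested rows. The family's median was 0.12, beside 0.03 over all tested rows. It was 0.25 without KO1, 0.06 without KO3, 0.21 without KO4, 0.22 without WT1, 0.08 without WT2 and 0.07 without WT3. In order of mean level, KO ran Snhg12, Snhg1, Snhg3, Snhg4, Snhg6, Snhg10, Snhg11, Snhg9, Gas5, Snhg7, Snhg5 and Snhg8, and WT ran Snhg12, Snhg3, Snhg4, Snhg10, Snhg1, Snhg6, Snhg9, Gas5, Snhg11, Snhg7, Snhg8 and Snhg5. Snhg1 was thus at place 2 in KO and place 5 in WT. Neighbours in the order overlapped in their library values except Snhg5 above Snhg8 in KO, and Snhg4 above Snhg10, Gas5 above Snhg11, and Snhg11 above Snhg7 in WT.

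The summed level of the 12 members was 265.2, 251.1, 310.9 and 320.3 FPKM in KO, against 220.9, 198.9 and 210.1 FPKM in WT. Without Snhg1 the sums overlapped, at 203.8, 194, 253.1 and 280.2 FPKM in KO and 213.5, 177.2 and 187.7 FPKM in WT. Without Snhg1 and Snhg12 they averaged 151 ± 16.1 FPKM in KO (SD, n = 4) and 144 ± 22.3 FPKM in WT (SD, n = 3). Snhg1 made up 12.5% to 23.2% of the family's summed FPKM in KO and 3.35% to 10.9% in WT.

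Within WT, the family varied mostly through 1 library. WT1 was the WT library farthest from the group's median for 10 of the 12 members, and for 54.7% of all tested rows. WT2 and WT3 differed by less than 0.1 on the log2 scale for 9 of the 12 members, and for 34.4% of all tested rows. WT1 was not to one side: it was the lowest WT library for Snhg1, Snhg4, Snhg6, Snhg7, Snhg11 and Snhg12, and the highest for Gas5, Snhg3, Snhg5, Snhg8, Snhg9 and Snhg10. Within KO, KO4 was the farthest for 6 of the 12 members and 23.1% of all tested rows, and KO1 for 2 of the 12 members and 44.6% of all tested rows. The median SD within groups was 0.33 over the members and 0.25 over all tested rows, both on the log2 scale.

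Slc3a2, the gene that shares its start region with Snhg1, stood at close levels in all libraries. It measured 14.9, 16.1, 14.2 and 15.4 FPKM in KO, against 15.7, 15.6 and 15.9 FPKM in WT. The groups overlapped and all 7 values were close, with a log2 difference of -0.05 (SE 0.14, 95% interval -0.35 to 0.25, limma adjusted p = 0.87). Snhg1 over Slc3a2 was 4.12, 3.55, 4.07 and 2.6 in KO, against 0.471, 1.39 and 1.41 in WT. On the other side lies Wdr74, a ribosome assembly gene 9468 bases away, with a log2 difference of 0.51 (SE 0.29, limma adjusted p = 0.36).

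**Figure D4:**
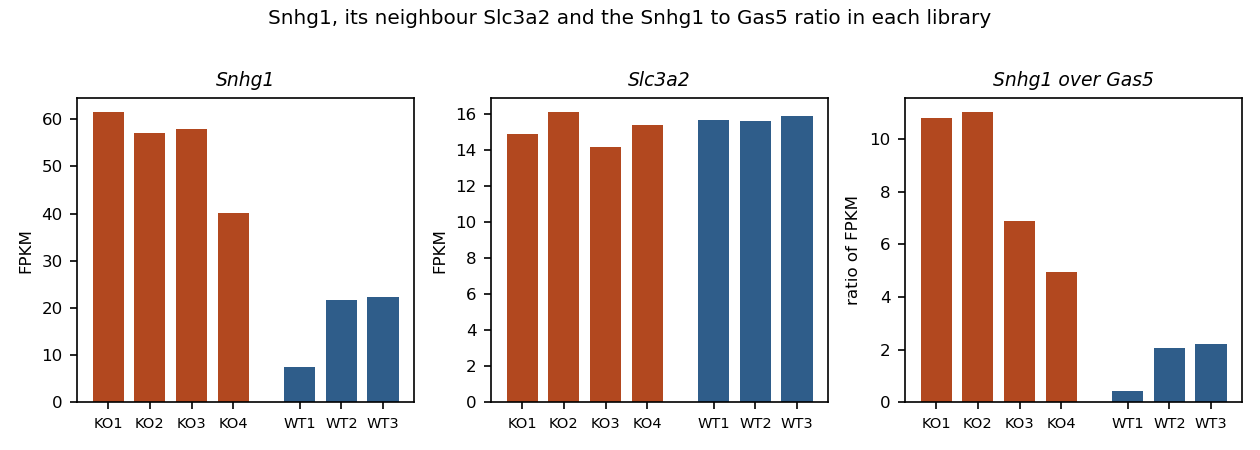
FPKM of Snhg1 and of its divergent neighbour Slc3a2, and the ratio of Snhg1 to Gas5, 1 bar per library with KO (orange) left of WT (blue). Slc3a2 stays between 14.2 and 16.1 in all 7 libraries, while the ratio runs from 4.95 to 11 in KO and from 0.446 to 2.22 in WT.

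Of the 24 nearest genes with a tested row on either side of the members, 1 passed the threshold, against 1.74% of all tested rows. It was 1700034P13Rik, 170768 bases from Snhg6, at 1.03 ± 0.206 FPKM in KO (SD, n = 4) and 4.8 ± 1.3 FPKM in WT (SD, n = 3), a log2 difference of -1.50 (SE 0.21, limma adjusted p = 0.0059). Of the 7 fits that each left out 1 library, the one without WT2 no longer passed, at a log2 difference of -1.39.

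The hosted RNAs themselves were almost unseen in the table. Of 115 rows of single small nucleolar RNAs, 104 were listed at 0 in all 7 libraries and none was above 0 in every library. Of the 10 rows for RNAs hosted by members, 7 were listed at 0 throughout. Snord22, in intron 8 of Snhg1, was listed at 22.1 FPKM in KO1 and at 0 in the other 6 libraries. Snora24 of Snhg8 was listed at 8.5 FPKM in KO2 and 17.7 FPKM in WT1, and Snora78 of Snhg9 at 3.7 FPKM in WT3. The table therefore says nothing about whether hosted RNAs changed with their hosts.

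Further members of the family are listed under older symbols, which the RefSeq gene table gives as synonyms. C230091D08Rik and D7Ertd715e belong to Snhg14, the long host across the imprinted Prader-Willi region, with log2 differences of 0.54 (SE 0.24, limma adjusted p = 0.24) and 0.72 (SE 0.24, limma adjusted p = 0.14). D7Ertd715e measured 3.7, 2.2, 2.2 and 3.2 FPKM in KO, against 0.7, 1.5 and 1.8 FPKM in WT, without overlap. The row 2810008D09Rik (Snhg20) averaged 10.6 ± 2.17 FPKM in KO (SD, n = 4) and 7.07 ± 1.33 FPKM in WT (SD, n = 3), also without overlap, at limma adjusted p = 0.18. 1810032O08Rik (Snhg16) and Gm11974 (Snhg15) had log2 differences of -0.07 and -0.16, and 9430008C03Rik (Snhg17) stayed below the filter. None of the 5 tested rows passed the threshold in limma. An unadjusted limma p under 0.05 was found for 3 of the 5, and for 1899 of all 10089 tested rows. Every KO library lay above every WT library for 2 of the 5, and for 9.11% of all tested rows.

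The machinery around the hosts was read from lists. Over all tested rows 1899 of 10089 had an unadjusted limma p under 0.05, 5388 had positive differences and 4701 had negative ones. The counts of each kind below are set against these. Of 11 tested genes of box C/D particle proteins and their assembly, none passed the threshold, 2 had an unadjusted p under 0.05, 6 differences were positive, and the median was 0.01. Rpap3, a cochaperone of particle assembly, averaged 9.32 ± 1.92 FPKM in KO (SD, n = 4) and 6.13 ± 0.306 FPKM in WT (SD, n = 3), at limma adjusted p = 0.16. Nop58, a core box C/D protein, had a log2 difference of 0.37 and Rrp9, which binds the U3 RNA, one of -0.44.

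Of 4 tested genes of box H/ACA particles none passed, 2 had an unadjusted p under 0.05, and the median was -0.25. Nhp2, a core protein of that class, measured 28.4, 38.8, 46.1 and 37.6 FPKM in KO, against 60.9, 60.5 and 51.1 FPKM in WT. The groups did not overlap, with a log2 difference of -0.61 (SE 0.17, limma adjusted p = 0.099). Gar1, another core protein, had a log2 difference of -0.69 (SE 0.31, limma adjusted p = 0.25), with overlapping groups.

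Nonsense-mediated decay, the route by which several translated host RNAs are removed, was represented by 13 tested genes, of which none passed, 3 had an unadjusted p under 0.05 and 9 had negative differences, with a median of -0.22. Smg6, the endonuclease of the pathway, averaged 10.9 ± 1.72 FPKM in KO (SD, n = 4) and 14.8 ± 0.95 FPKM in WT (SD, n = 3), at limma adjusted p = 0.19. Pnrc2, an adaptor to decapping, had a log2 difference of 0.41 and Smg8, part of the complex with the Smg1 kinase, one of -0.42. Of the 6 tested genes of the exon junction complex, which marks spliced RNA for that decay, none passed, 1 had an unadjusted p under 0.05 and the median was -0.03. Rbm8a, a core member, had a log2 difference of -0.54 (limma adjusted p = 0.17).

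Of 37 tested protein-coding hosts of small nucleolar RNAs, 27 had positive differences, and the median was 0.15. None passed and 4 had an unadjusted p under 0.05. The KO libraries differed widely, with summed levels of 6263 to 11944 FPKM, highest in KO4, around 7401 to 7647 FPKM in WT. Rpl30, a ribosomal protein gene, measured 24, 28.6, 46.5 and 28.5 FPKM in KO, against 19.1, 21.1 and 14.8 FPKM in WT. The groups did not overlap, with a log2 difference of 0.74 (SE 0.22, limma adjusted p = 0.11). Among 14 translation factors and related genes with a TOP start, 12 differences were positive, and the median was 0.28. None passed and 3 had an unadjusted p under 0.05. Eef1b2, Eef2, Gnb2l1 and Tpt1 are in both lists, so the lists are not separate. This list was also highest in KO4, at 2533 to 3627 FPKM in KO and 2446 to 2613 FPKM in WT. Npm1, nucleophosmin, and Pabpc1, the poly(A)-binding protein, had log2 differences of 0.66 and 0.58, both at limma adjusted p = 0.16.

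Other long noncoding RNAs had 18 rows, of which 9 were tested. All 9 had positive differences, none passed and 3 had an unadjusted p under 0.05, with a median of 0.40. Sox2ot averaged 1.4 FPKM in KO and 0.733 FPKM in WT, so it met the filter on low values only through KO. Mir22hg, a microRNA host, had a log2 difference of 0.70 (SE 0.22, limma adjusted p = 0.13). Pvt1 averaged 2.92 ± 0.65 FPKM in KO (SD, n = 4) and 1.57 ± 0.603 FPKM in WT (SD, n = 3), at limma adjusted p = 0.17. The list summed to 398 to 596 FPKM in KO, highest in KO1, and to 313 to 393 FPKM in WT.

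**Figure D5:**
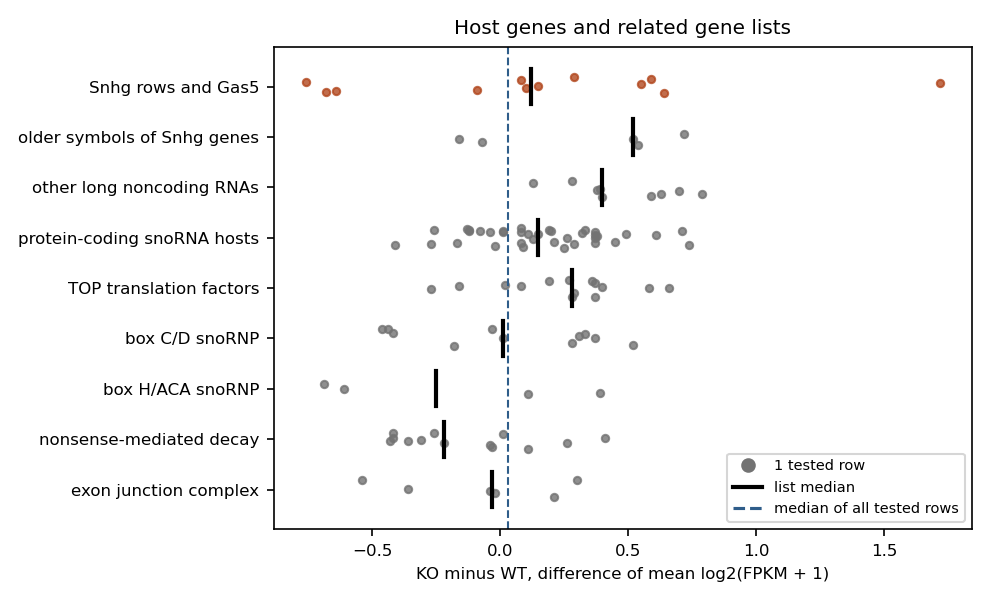
Difference of mean log2(FPKM + 1), KO minus WT, of each tested row in the family (orange) and in related lists (grey), with the list median (black bar) and the median of all tested rows (dashed line at 0.03). List medians run from -0.25 for box H/ACA particles to 0.52 for the older symbols, and Snhg1 at 1.72 is the highest point.

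The rows most like Snhg1 over the 7 libraries were found by the root mean square difference of log2 values centred on each row's mean. Since Snhg1 was chosen for its rise, their KO and WT values carry no test. The closest were Kcnip1 (0.35), Serf1 (0.36), Lamtor5 (0.36), S100a1 (0.37) and Gm3317 (0.39). Gm3317 averaged 4.2 FPKM in KO and 0.3 FPKM in WT, so it met the filter on low values only through KO. Kcnip1 was also low in WT, at a mean of 1.07 FPKM with WT1 at 0.1 FPKM. Lamtor5, a subunit of the lysosomal Ragulator complex, measured 164.4, 214, 259.2 and 209 FPKM in KO, against 47.7, 77.5 and 78.8 FPKM in WT. S100a1, a calcium-binding protein, measured 9.6, 12.6, 9.4 and 11.8 FPKM in KO, against 0.7, 2.3 and 2.3 FPKM in WT. Both had a WT1 value well below WT2 and WT3, which the choice by likeness to Snhg1 over these same libraries favoured. Within the family, Snhg6 was the closest to Snhg1 (0.63, rank 175 of 10089 rows), then Snhg11 (0.74, rank 770). Gas5 (1.43, rank 9937) and Snhg9 (2.13, rank 10078) were among the least alike.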

How the data were processed

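RNA was sequenced from 7 libraries, 4 KO and 3 WT, each a pool of 3 mice, and groups and replicate numbers came from the sample titles. Reverse transcription of 1 ng of RNA used the Ovation V2 kit, and libraries the TruSeq V2 kit, per the labels' protocols. TopHat2 2.0.8, Cufflinks 2.1.1, DESeq 1.10.1 and mm10 appear in the submitters' processing notes with no roles, and the annotation and strand handling are not given in the sources used here. FPKM was deposited by the authors for each library in 22016 rows, rounded to 0.1, so values under 0.05 read as 0. FPKM gives no counts, so depth is unknown and no counting intervals were given. A second table that the authors deposited lists 113 genes with a fold ratio, its log2 value and a p-value.

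KO and WT were compared on log2(FPKM + 1) by limma 3.58.1 (R 4.3.3; two-sided, eBayes variances with a trend, Benjamini-Hochberg threshold 0.05) over 10089 rows averaging at least 1 FPKM. The limma script was tested on simulated data. The p-values measure the spread between pools. The members, lists and the rule for named genes were chosen with earlier results of these data known. The rule named each member and S100a10, every list gene past the threshold and the 3 with the smallest unadjusted p per list, the neighbours of Snhg1 and those past the threshold, older symbols, and the 5 rows most like Snhg1; 1 gene it took is not reported here. Annotation came from GENCODE M21 and RefSeq (GRCm38.p6); Snhg4 and Snhg7 had no GENCODE entry, and Snhg4 and Snhg6 no start sequence. Alternatives changed the pseudocount, filter, scaling, variance model, replicate block, row summing or left out 1 library.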

Additional observations from a re-analysis of the deposited data

Results flagged for a closer look

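Of 62 KO groups of 4 libraries searched for a value far from the other 3, 3 stood apart, and chance gives about 5% of such groups. Among the members, Snhg3 measured 28.6 FPKM in KO4, against 41.5 to 43.2 FPKM in the other KO libraries, and Snhg11 measured 18.4 FPKM in KO1, against 8.8 to 10.3 FPKM in the others. Of the listed genes, Casc3, an exon junction protein, measured 13.3 FPKM in KO1, against 22.2 to 23.6 FPKM in the others. Of the KO libraries, KO1 also had the highest summed levels of other cells' markers, and their part in these values was not tested.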

How the results depend on the processing

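Of 213 values of the 12 members under the alternatives, 211 moved by less than the spread between replicates, and the other 2 were those of Snhg8 under other pseudocounts. That count takes no note of changes of sign or call. Snhg3, Snhg4 and Snhg9 did not keep their sign in every setting, and Snhg9 went from -0.64 to 0.74 with array weights. The counts for other named genes below follow direction and call, so they cannot be set beside this one. The median difference of the family, 0.12 as reported, ran from 0.06 (without KO3) to 0.27 (with array weights). Snhg1, chosen for its rise, was not past the threshold without KO2 (log2 difference 1.69), with no filter on low values (1.72) and with a replicate block (1.86). These calls are a description of the chosen contrast and no sign of stability.

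The number of rows past the threshold, 176 as reported, depended strongly on the setting. It was 1689 with array weights, 100 without trend, 83 with no filter on low values, and from 28 to 331 when 1 library was left out (28 without WT2, 331 without KO1). The number of members past it was 4 with array weights (Gas5, Snhg1, Snhg6 and Snhg8), 0 with no filter, and from 0 to 1 with 1 library left out. Deviations of libraries of the same number correlated at -0.22, 0.02 and -0.26, and those of KO1 with WT3 at 0.31. With 4 KO and 3 WT libraries, this cannot decide whether the numbers pair them. The replicate block gave 18 rows and 0 members. Neither 1700034P13Rik, at a log2 difference of -1.54, nor S100a10, at -1.22, was among the rows. The share of higher calls, 55.7% as reported, ran from 48% under quantile normalization to 85.7% without WT2, with 83.3% under the block, 75% without WT1 and 72.2% without KO2.

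Of 870 values of the 49 other named genes, 5 turned direction: 1810032O08Rik to 0.28 with array weights, 0.09 without KO1 and 0.22 without WT1, Gm11974 to 0.00 without KO2, and Rgs5 to 0.00 without KO3. With 1 library left out, 1810032O08Rik ran from -0.32 to 0.22, Gm11974 from -0.41 to 0.00 and Rgs5 from -0.25 to 0.00. Another 14 lost and 17 gained the threshold. The cause was not tested. Depth is unknown, and rounding to 0.1 FPKM limits the lowest members, Snhg8 and Snhg5.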
